A study of Homo sapiens with 5 samples.

Results

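Isolated origins are the replication initiation sites of the 3-hour ini-seq 2 list that stand alone in a stretch of the genome with no other called origin. They were chosen by position: an autosomal interval of that list was taken when no other interval of the list lay within 200 kb on either side, measured from end to start. The rule selected 1215 of the 23608 autosomal origins, which is 5.15%, or 5.08% of all 23905 origins in the list. The remaining 22393 autosomal origins, among which 15846 lay in ini-domains (at least 6 origins joined over distances of up to 100 kb), served for comparison.

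All maps came from EJ30, a human bladder carcinoma cell line. For ini-seq 2, nuclei of cells arrested in late G1 phase with mimosine started replication in a cytosolic extract of proliferating HeLa cells, a cervical carcinoma line, with Br-dUTP as the density label, for 3 h in one list and for 15 min in the other. The 3-hour list pools 2 biological replicates, and the number behind the 15-minute list (10181 origins) is not given in the sources used here. Short nascent strands (SNS-seq) of 0.5 to 2 kb and of 2 to 4 kb from EJ30 cells gave 147657 and 184966 peaks, which covered 237238 intervals after joining. Each condition is thus a single list of positions without read counts, so the sequencing depth behind each origin is unknown and no spread between replicates can be given. No test was made for this reason, and the 95% intervals printed here (exact Clopper-Pearson for shares) cover counting error over origins only.

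Replication of a human chromosome starts at many sites, and a site is licensed in G1 phase by loading of the MCM helicase before it can fire in S phase. Origins tend to lie at CpG islands and active gene starts and to crowd together in gene-rich, GC-rich, early replicating DNA. AT-rich and gene-poor regions hold few mapped origins and are typically replicated late by forks that travel far. In ini-seq 2 the efficiency of an origin is HL/(HL + LL), from its heavy/light (newly replicated) and light/light (unreplicated) read counts. Each count is first divided by the total of its library, so the score is a relative one, and the list keeps sites of at least 0.8.

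Isolated origins had 3 kinds of sequence. A CpG island was called at a GC content above 50% with an observed to expected CpG ratio above 0.6, a purine tract was an unbroken run of at least 50 nt of A and G on one strand (C and T on the other), and the rest was called CpG-poor. Stretches of 4 members are printed from hg38, plus strand, 5′ to 3′, to show a CpG island and the sequences that recurred among the members. The first has every CG in capitals and belongs to the member at the start of USP6NL, which encodes a GTPase-activating protein for Rab5.

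USP6NL start, chr10:11611201-11611440: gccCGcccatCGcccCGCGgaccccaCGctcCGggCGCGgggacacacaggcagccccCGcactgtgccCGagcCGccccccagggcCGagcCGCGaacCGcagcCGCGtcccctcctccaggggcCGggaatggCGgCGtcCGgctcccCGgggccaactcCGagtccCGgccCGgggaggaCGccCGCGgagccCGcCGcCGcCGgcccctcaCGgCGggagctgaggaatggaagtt

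The other 3 carry blocks of 16 or more bases in capitals built of words that at least 3 CpG-poor isolated origins of the family share. The first and second of them belong to one recurring family and the third, itself a CpG island by the criterion, to another.

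First family, chromosome 13, chr13:47160126-47160375: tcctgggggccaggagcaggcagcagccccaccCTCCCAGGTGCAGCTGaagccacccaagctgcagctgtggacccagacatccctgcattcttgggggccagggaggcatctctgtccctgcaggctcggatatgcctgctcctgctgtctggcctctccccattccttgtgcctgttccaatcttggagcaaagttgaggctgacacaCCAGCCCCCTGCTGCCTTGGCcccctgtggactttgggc

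First family, chromosome 9, chr9:32010624-32010873: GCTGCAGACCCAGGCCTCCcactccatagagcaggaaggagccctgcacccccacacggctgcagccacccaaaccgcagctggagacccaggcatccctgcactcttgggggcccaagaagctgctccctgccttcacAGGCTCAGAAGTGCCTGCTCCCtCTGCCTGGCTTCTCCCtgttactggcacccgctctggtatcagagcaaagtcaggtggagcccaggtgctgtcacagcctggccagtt

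Second family, chromosome 16, chr16:61128826-61129075: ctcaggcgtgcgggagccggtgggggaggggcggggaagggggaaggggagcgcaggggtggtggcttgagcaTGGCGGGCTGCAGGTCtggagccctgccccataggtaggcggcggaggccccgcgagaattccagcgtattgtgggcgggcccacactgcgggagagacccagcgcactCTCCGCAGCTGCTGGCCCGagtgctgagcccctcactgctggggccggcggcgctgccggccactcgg

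The median distance from an isolated origin to its nearer neighbour was 320 kb (quartiles 248 and 478 kb), where the other autosomal origins had a median of 9.1 kb. These distances are what the members were selected on. Of the 1215 members, 289 (23.8%) had no origin within 500 kb, 74 (6.09%) none within 1000 kb and 16 (1.32%) none within 2000 kb. Just inside it lay members at the start of BLTP1, a lipid transfer protein, within HECW1, a ubiquitin ligase, and at the start of THBS1, thrombospondin 1, at 200.2, 200.4 and 200.4 kb from the nearer neighbour. Just outside the 200 kb limit were a purine tract site on chromosome 20 and an origin over a transcript start inside LHFPL2, both at 199.7 kb. An origin at the start of GRIP1, a scaffold of glutamate receptors, lay at 199.4 kb.

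**Figure D1:**
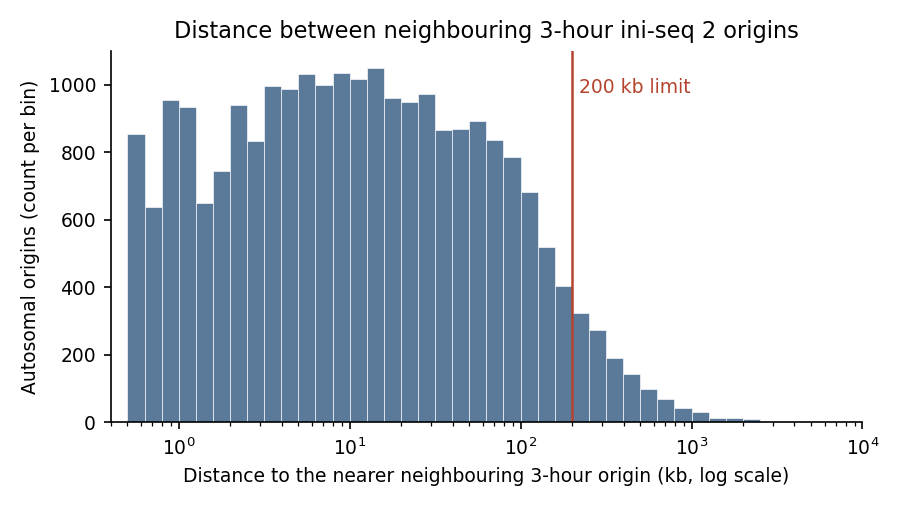
Distance from each autosomal 3-hour origin to its nearer neighbour (kb, log scale) against the number of origins per bin. The vertical line is the 200 kb limit that the 1215 isolated origins exceed and the bars grow shorter from about 100 kb onwards.

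Isolated origins were found on all 22 autosomes, from 112 on chromosome 2 to 6 on chromosome 22. On chromosome 4, which has 4.09 origins per Mb, 12.6% of the origins were isolated, and on chromosome 19, with 40.8 origins per Mb, 0.294%. The DNA within 200 kb of an isolated origin came to 462 Mb, or 16.8% of the autosomal sequence. Of the 1215, 851 followed each other directly in 293 runs of 2 or more, and 364 stood between origins that were not isolated. These counts come from the positions that the rule used and are a description. The neighbour of an isolated origin already has a gap of more than 200 kb on that side.

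The longest run held 12 isolated origins over 15.3 Mb of chromosome 3 (chr3:72446701-87793100), with no other 3-hour origin between them. In this run 7 members were CpG islands. Among them were islands inside ROBO2 and ROBO1, receptors for Slit guidance cues, each over the start of a coding transcript of its gene. Others lay at the starts of GBE1, the glycogen branching enzyme, VGLL3, a transcription cofactor, and HTR1F, a serotonin receptor. The efficiencies of these islands, in that order, were 0.939, 0.935, 0.971, 0.903 and 0.929, and each of these 5 was also called at 15 minutes. The island at the start of CHMP2B, a subunit of ESCRT-III, had 0.867, was not called at 15 minutes and had no SNS-seq peak over it. Another site inside ROBO2, a purine tract, had an efficiency of 0.905, no origin at 15 minutes and its nearest SNS-seq peak 50.3 kb away, and the CpG-poor sites at chr3:83218801-83219100 and chr3:86282301-86282600 had efficiencies of 0.803 and 0.864 and no origin at 15 minutes. The second longest run, 10 members over 6.71 Mb of chromosome 7, consisted of CpG islands alone. It included an origin over a transcript start inside TSPAN12 and those at the starts of FAM3C, CADPS2, WASL and TMEM229A. These 5 were in the high class and called at 15 minutes, and the other 5 were in the medium class and not called. These runs were picked after their values were seen.

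Among members with a neighbour on both sides and no assembly gap in between, the 6 farthest from any other origin lay on chromosomes 4, 14, 16 and 18. The member at the start of PABPC4L, a poly(A)-binding protein paralog, had its neighbours 2605 and 2610 kb away, an efficiency of 0.924 and an SNS-seq peak over it. Its left neighbour was a purine tract site with an efficiency of 0.936, and its right neighbour a CpG-poor site of 0.837 (chr4:136812101-136812900). An island over a transcript start inside FLRT2, a guidance and adhesion receptor, lay 3704 and 2382 kb from its neighbours with an efficiency of 0.957. The printed chromosome 16 site (chr16:61128801-61129100) lay 2394 and 3939 kb from its own, with an efficiency of 0.955. The member at the start of the non-coding LINC01902 on chromosome 18, had neighbours 2275 and 3748 kb away and an efficiency of 0.823. Of these 6, FLRT2 was called at 15 minutes and the other 5 were not, and an SNS-seq peak overlapped all but the purine tract site.

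Isolated origins had a median efficiency of 0.912 (quartiles 0.871 and 0.945), and the other autosomal origins 0.869. Efficiency comes from the same list that defined the members and is given as a description. When the whole list was cut into 3 classes of equal size at efficiencies of 0.842 and 0.907, 660 isolated origins (54.3%, interval 51.5 to 57.2%) were in the high class, 400 (32.9%) in the medium and 155 (12.8%) in the low class. The other origins divided into 31.7, 33.4 and 34.9%. The median efficiency of the isolated origins was the higher one on 22 of 22 autosomes, with a mean difference of 0.0361 ± 0.0190 (SD over autosomes). Median length was 700 bp in both groups, with quartiles of 400 and 1100 bp for the isolated ones.

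Beside USP6NL, 3 members reached the upper end of the scale with an efficiency of 1. Islands over transcript starts inside IL4R, the alpha chain of the interleukin 4 receptor, and TUSC3, a subunit of the oligosaccharyltransferase, were among them. The remaining one lay outside coding genes on chromosome 3 (chr3:96813401-96813700). HACD1, a dehydratase of very long chain fatty acid synthesis, followed with 0.993 and SH3D19, an endocytic adaptor, with 0.992. All 6 were CpG islands of 72.2 to 79.0% GC with an SNS-seq peak over them, and 5 of them were called at 15 minutes. The lowest were CpG-poor sites on chromosomes 13, 9 and 15 with efficiencies of 0.802, 0.802 and 0.803 and a purine tract site on chromosome 17 with 0.803, tied with the CpG-poor site of chromosome 3 given above. None of these 5 was called at 15 minutes or lay over a gene start. The longest members were all CpG islands at gene starts: EFNA5, the ligand ephrin-A5, spanned 4400 bp with an efficiency of 0.830, CPEB2, a translational regulator, and SLIT2, a Robo ligand, 3600 bp each with 0.964 and 0.873, FOXO3, a forkhead factor, 3300 bp with 0.932, and CDH2, N-cadherin, 3000 bp with 0.932.

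The 15-minute list holds the sites that had reached the authors' calling limits after the shorter reaction, and a site missing from it may still have begun to replicate. It held 627 of the 1215 isolated origins (51.6%, interval 48.8 to 54.4%), against a background of 39.9% over all autosomal 3-hour origins and 39.2% over the other ones. The order was another within the efficiency classes. In the high class 523 of 660 isolated origins were called at 15 minutes (79.2%, interval 75.9 to 82.3%) and 84.7% of the other high-class origins. In the medium class the shares were 24.3% (interval 20.1 to 28.8%) and 32.2%, and in the low class 4.52% (7 of 155) and 4.56%. With the other origins weighted to the class shares of the isolated ones, the difference of +12.4 percentage points became -5.6 points. On single autosomes the unweighted difference was positive on 15 of 22 (mean 7.74 ± 10.5 points, SD).

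Among CpG islands the share called at 15 minutes was 66.9% (609 of 910, interval 63.8 to 70.0%) for isolated and 65.9% for other islands. Isolated CpG-poor sites were called at 4.73% (8 of 169, interval 2.07 to 9.11%) and other CpG-poor sites at 10.9%. For purine tract sites the shares were 7.35% (10 of 136, interval 3.58 to 13.1%) and 10.7%. The 15-minute Z-score, the authors' scaling of each origin within that list, had a median of 0.131 (interval 0.0459 to 0.242) at isolated and 0.0352 at other origins. Among isolated origins the median was 0.2845 in the high, -0.779 in the medium and -1.43 in the low class. The part of efficiency class in the difference was not tested. ARHGAP10, a GTPase-activating protein, had the highest Z-score with 2.36. Next came FOCAD, the gene of focadhesin, with 2.31, ZMYND11, a histone reader, with 2.28, FAM171A1 with 2.12 and CDYL, a chromodomain corepressor, with 2.09. Of the low-class members called at 15 minutes, 6 of 7 were CpG islands, EFNA5 with a Z-score of -1.61 among them.

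The origin was longer at 3 h than at 15 min in 487 of 627 isolated origins (77.7%, interval 74.2 to 80.9%) and in 87.4% of the others. The median ratio of the 2 lengths was 1.31 (interval 1.27 to 1.33) at isolated and 1.5 at other origins. Among isolated origins the ratio was 1.25 in the high (n = 523), 2.0 in the medium (n = 97) and 3.0 in the low class (n = 7). The part of efficiency class in the difference was not tested. Origins within 500 bp were merged by the authors, so a crowded region can gain length by merging at 3 h, and the part of this in the ratio was not tested.

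**Figure D2:**
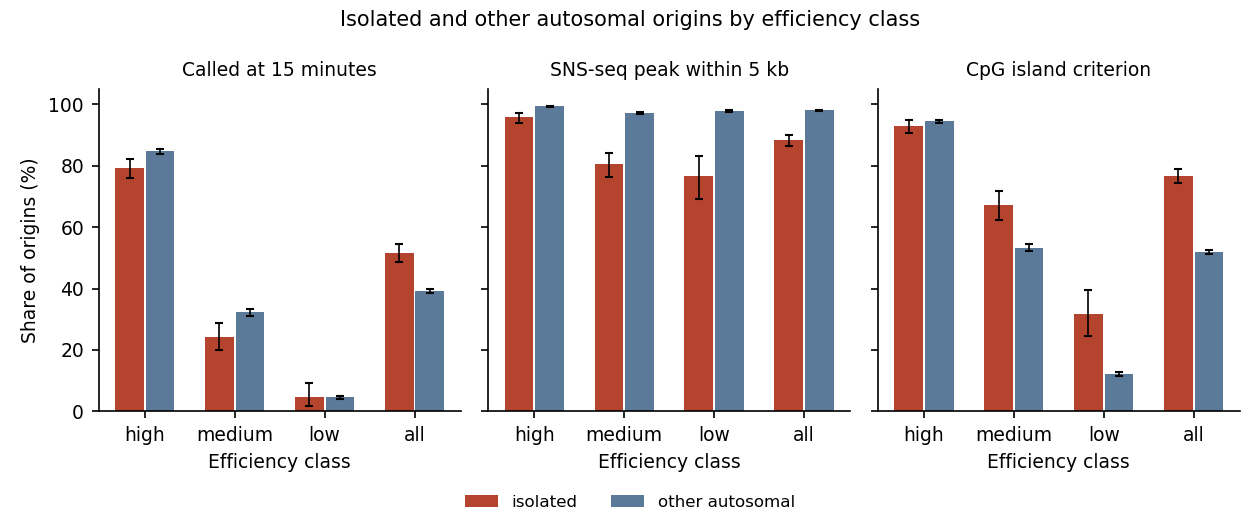
Share of isolated and other autosomal origins (%) that were called at 15 minutes, had an SNS-seq peak within 5 kb or met the CpG island criterion, by efficiency class and in total. Error bars are exact 95% intervals. The 15-minute share is higher for isolated origins in total (51.6 against 39.2%) but not within the high or the medium class.

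SNS-seq, which maps short nascent strands made inside EJ30 cells, was not used to choose the members. A peak of either fraction lay within 5 kb of 1073 isolated origins (88.3%, interval 86.4 to 90.1%), against 97.6% of all autosomal origins and 98.1% of the other ones. A peak overlapped 1042 isolated origins (85.8%, interval 83.7 to 87.7%), 91.6% of all and 91.9% of the others. The 5 kb share was lower for the isolated origins on 22 of 22 autosomes, by 12.0 ± 6.83 percentage points (SD), and in each efficiency class: 95.8 against 99.4% in the high, 80.5 against 97.3% in the medium and 76.8 against 97.8% in the low class. A peak within 5 kb is more easily met where peaks are dense, and the peak density around isolated origins was low, as given further on.

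The shares differed by sequence type. Of the CpG islands, a peak overlapped 97.8% of isolated (890 of 910, interval 96.6 to 98.7%) and 98.6% of other origins. Of CpG-poor sites it overlapped 78.7% (133 of 169, interval 71.7 to 84.6%) and 89.9%. Of purine tract sites it overlapped 14.0% (19 of 136, interval 8.63 to 21.0%) of the isolated and 32.6% of the others. Among the 142 isolated origins without a peak within 5 kb, 103 (72.5%) were purine tract sites, 23 CpG-poor sites and 16 CpG islands, and 2 were called at 15 minutes. Those 142 made up 25.1% of all autosomal origins without a peak within 5 kb. The islands without a peak included those at the starts of TRIM68, DIAPH3, a formin, and CHMP2B, with nearest peaks 33.8, 18.6 and 8.2 kb away. Without the purine tract sites, 96.4% of isolated origins had a peak within 5 kb, 2.76 points below the other origins without tracts.

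By fraction, peaks of 0.5 to 2 kb strands overlapped 78.8% of isolated and 77.9% of other origins, and peaks of 2 to 4 kb strands 85.6 and 91.6%. With the other origins weighted to the class shares of the isolated ones, the differences were -7.47 points in the short and -8.69 points in the long fraction. The median overlapping peak was 1377 bp long in the short fraction and 2223 bp in the long one, where the other origins had 1237 and 2288 bp.

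The DNA around isolated origins held few SNS-seq peaks as well. A median of 10 SNS-seq intervals (quartiles 6 and 18) had their centre in the 200 kb on either side of an isolated origin, and 115 (quartiles 57 and 162) around the other origins. This was 3.62 intervals per 100 kb on average around isolated origins, 28.2 around the others and 8.47 over all autosomal sequence. The rule kept 3-hour origins out of the isolated flanks, and 97.6% of all autosomal 3-hour origins have an SNS-seq peak within 5 kb. Part of the difference was thus set by the choice of members, and how much was not tested. At 16 members (1.32%, interval 0.755 to 2.13%) the flanks held none at all, among them the origin at the start of ADGRL3, the adhesion receptor latrophilin 3, with an efficiency of 0.973. Another, outside genes on chromosome 9 (chr9:64773501-64773900), had an efficiency of 0.984 and was called at 15 minutes, with its nearest SNS-seq peak 624 kb away. Its left neighbour lay 26152 kb away. Among all members, 47 had an assembly gap between them and a neighbour or chromosome end, and this chromosome 9 member was one of them. How gaps and the removal of reads not aligned uniquely affect such flanks was not tested. At the other end, 4 members on chromosome 16 had flanks crowded with SNS-seq intervals: SOCS1, a suppressor of cytokine signalling, with 187, IL4R with 145, GTF3C1 and KATNIP, which encode a TFIIIC subunit and a katanin interactor, with 134, and ABCC1, a drug efflux pump, with 131.

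The rule emptied the flanks of 3-hour origins, which most 15-minute origins overlap, so that the number of 15-minute origins there was largely set by the choice of members. There was none in the flanks of 1154 members, 1 in those of 57, 2 in those of 3 and 3 at 1 member. Protein-coding gene starts were sparse too. As 31.7% of all autosomal 3-hour origins hold one, the rule also set part of this. The flanks of 552 isolated origins (45.4%, interval 42.6 to 48.3%) held none, and the median was 1, against 3.51% and a median of 6 for the other origins. Windows of 1 kb with a GC content above 60% were absent from the flanks of 689 isolated origins (56.7%, interval 53.9 to 59.5%) and of 2.41% of the others. Summed over the remaining members, the flanks held 1418 such windows, each by definition without a 3-hour origin. A window in the flanks of several members was counted for each of them. Origins are GC-rich themselves, so the rule also set part of the difference in such windows.

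**Figure D3:**
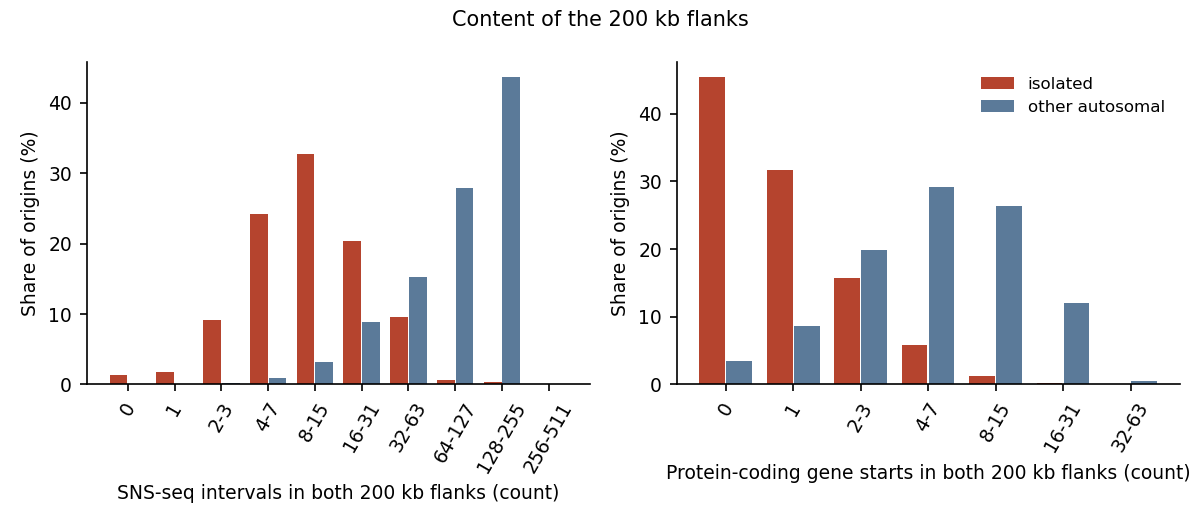
Share of isolated and other autosomal origins (%) by the number of SNS-seq intervals (left) and of protein-coding gene starts (right) in the 200 kb on either side. Isolated origins have a median of 10 SNS-seq intervals and 1 gene start, and the other origins 115 and 6.

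The GC content of the members themselves differed little from that of other origins: 67.5 ± 6.78% (SD, n = 1215) against 66.9 ± 4.84%. On single autosomes the difference was 0.101 ± 1.36 points (SD) and positive on 14 of 22. At equal class shares the isolated origins had 1.06 points less. At 9 to 10 kb from the centre the mean GC content was 39.4% for isolated and 49.8% for other origins, and over the 200 kb flanks 39.4 ± 2.65% and 48.4 ± 5.53%, lower on 22 of 22 autosomes. The value at 9 to 10 kb was 39.4, 39.2 and 39.7% in the high, medium and low class of isolated origins, and 46.6, 49.8 and 52.8% in those of the others.

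**Figure D4:**
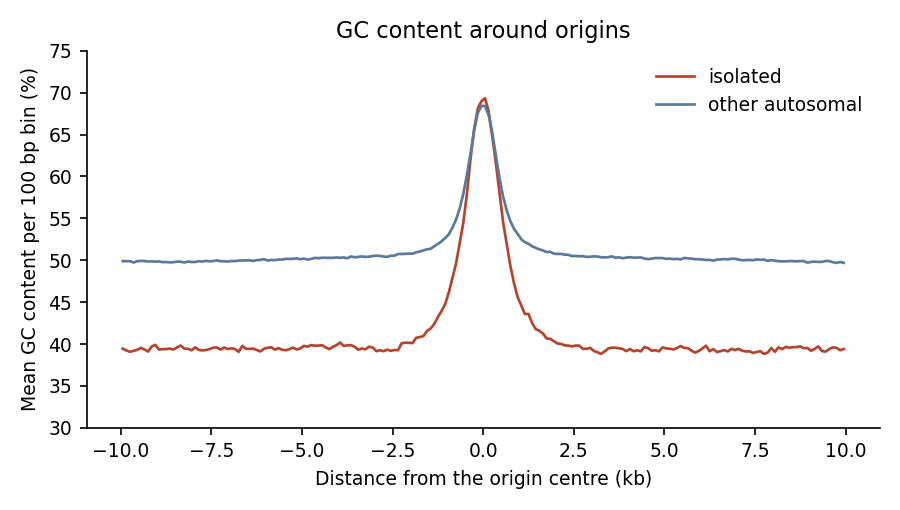
Mean GC content in 100 bp bins (%) by distance from the origin centre (kb) for isolated and other autosomal origins. Both lines peak alike at the centre, and at 9 to 10 kb they are at 39.4% and 49.8%.

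The CpG island criterion was met by 932 isolated origins (76.7%, interval 74.2 to 79.1%), against 53.3% of all autosomal origins and 52.1% of the others. In the high class the shares were 93.03% (interval 90.8 to 94.9%) and 94.5%, in the medium class 67.3% (interval 62.4 to 71.8%) and 53.4%, and in the low class 31.6% (interval 24.4 to 39.6%) and 12.2%. Weighted to equal class shares, the difference of 24.6 points was 6.24 points. A G-quadruplex motif, which needs 4 stretches of 3 or more G separated by 1 to 7 nt, sought on both strands, lay in 855 isolated origins (70.4%, interval 67.7 to 72.9%) and in 71% of all autosomal origins. It was present in 75.6% of the isolated islands, 72.1% of the purine tract sites and 40.8% (interval 33.3 to 48.6%) of the CpG-poor sites, where 64.7% of the other CpG-poor origins had one.

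Purine tracts were in 136 isolated origins (11.2%, interval 9.48 to 13.1%), against 4.66% of all autosomal origins and 4.31% of the others. The share was higher than in the other origins on 22 of 22 autosomes, by 10.4 ± 10.3 points (SD), and in each class: 5.61 against 2.20% in the high, 21.0 against 7.39% in the medium and 9.68 against 3.28% in the low class. The tracts in isolated origins had a median of 127 nt, and 92 reached 100 nt. The longest run, 511 nt, lay in a 600 bp member inside LINGO2, a neuronal leucine-rich repeat protein, with an efficiency of 0.898, no 15-minute origin and the nearest SNS-seq peak 206 kb away. The next ran to 447 nt on chromosome 2, 417 nt on chromosome 12 and 384 nt in GRM8, a glutamate receptor gene, with efficiencies of 0.866, 0.863 and 0.869.

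Isolated tract sites had a median GC content of 52.2% and a CpG ratio of 0.142, and 84 of 136 were of the medium class. Of the 136, 22 also met the CpG island criterion. An SNS-seq peak overlapped 12 of those 22 and 7 of the other 114 (6.14%, interval 2.50 to 12.2%), and 8 of the 22 and 2 of the 114 were called at 15 minutes. In the remaining autosomal origins a peak overlapped 79.7% of the tract sites meeting the criterion and 26.1% of those that did not. A gene start lay in 11 tract sites, among them (picked after their values were seen) MAP2, a microtubule-associated protein, RORA, a nuclear receptor, and ETS2, with efficiencies of 0.930, 0.883 and 0.939. Of these 11, 7 were called at 15 minutes, the 3 named ones included, while MDGA2, DOK5, LDB2 and ZNF462 were not, and a peak overlapped all but LDB2. Many tracts were built of short repeated units. On either strand, 3 tandem copies of GGAA were found in 42.6% of isolated tract sites (58 of 136), in 31.3% of the other tract sites (302 of 965), in 1.86% of all autosomal origins and in 0.0854% of RefSeq promoter windows (GRCh38.p14), which are 300 bp long and so shorter than most origins. Of the other units counted, isolated and other tract sites differed less. The shares were 11.0 and 11.4% for 3 copies of GAAA and 39.7 and 36.3% for 3 of GGGA. For 6 copies of GA they were 24.3 and 21.3%. Tract sites were defined by long purine runs, which largely sets their excess over all origins and promoter windows. Reads that did not align uniquely were removed by the authors, and how this affects such repeats was not tested.

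The 169 CpG-poor isolated origins had a median GC content of 65.9%, a CpG ratio of 0.367, a length of 400 bp and an efficiency of 0.837, and 91 were of the low class. Of the 169, 76 (45.0%, interval 37.3 to 52.8%) lay outside annotated genes, where 22.4% of other CpG-poor origins did. Comparing them with each other by shared 16-base words on either strand (at least 5 words in common) linked 63 of them (37.3%) into 2 families of 37 and 26, and 100 were linked to none. The families were found by looking at the members, and their counts are a description. Words present in at least 3 members of the first family were found, at least 5 at a time, in 30 isolated origins on 13 chromosomes and in 55 other autosomal origins. The 30 had a median efficiency of 0.823, with 25 in the low and 5 in the medium class. None was called at 15 minutes, and 24 (80.0%) were overlapped by an SNS-seq peak. The 55 others were alike in these values, with a median efficiency of 0.828, 40 in the low and 15 in the medium class, none called at 15 minutes and 49 (89.1%) overlapped by a peak. The words of the second family were in 27 isolated origins on 13 chromosomes and 48 others. These 27 had a median efficiency of 0.894 and a median length of 300 bp, with 11 in the high, 14 in the medium and 2 in the low class. An SNS-seq peak overlapped 27 of 27, and none was called at 15 minutes. Of the 48 others, which had a median efficiency of 0.905, a peak overlapped 46 and 4 were called at 15 minutes. The word most often shared in the second family, GGTGCTAAGCCCCTCA, was in 16 isolated origins and occurred 1187 times on the autosomes, 40 times (3.37%) inside a 3-hour origin.

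**Figure D5:**
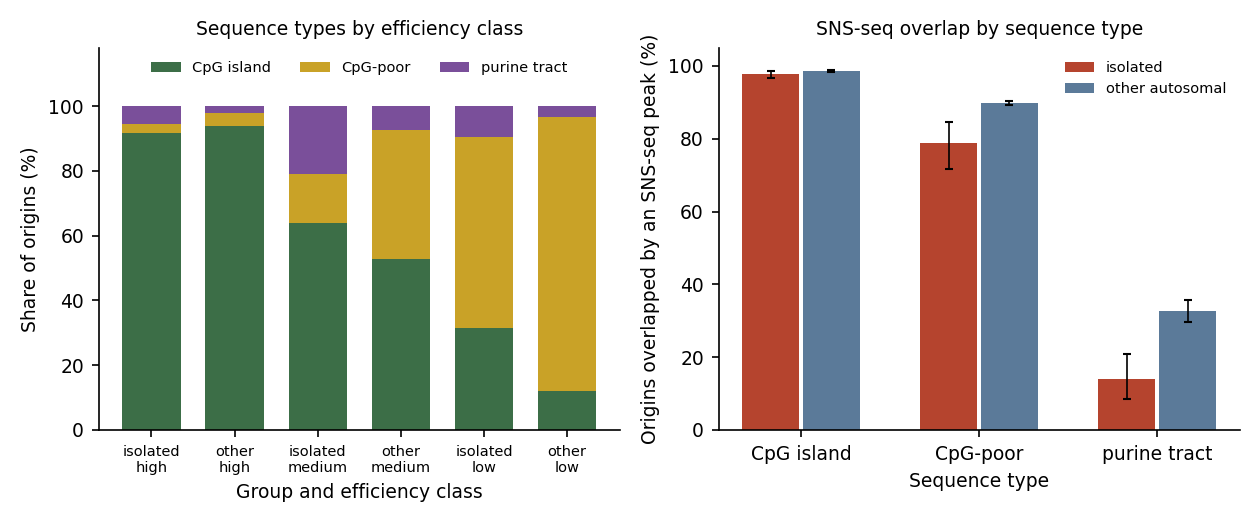
Left, the share (%) of CpG islands, CpG-poor sites and purine tract sites among isolated and other autosomal origins of each efficiency class. Right, the share (%) of each sequence type overlapped by an SNS-seq peak, with exact 95% intervals. Purine tract sites make up 21.0% of the medium class of isolated origins, and a peak overlaps 14.0% of all isolated tract sites.

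A protein-coding gene start lay in 522 isolated origins (43.0%, interval 40.2 to 45.8%), against 31.7% of all autosomal origins and 31.0% of the others. Counting the start of any protein-coding transcript, the share was 62.6% (761 of 1215, interval 59.8 to 65.4%), against 45% of all autosomal origins and 9863 of the 22393 others. Isolated origins lay in the body of a coding gene without holding a gene start in 31.4% and outside all genes in 12.8%, the other origins in 44.6 and 14.8%. At equal class shares the difference for gene starts was 1.59 points, and within CpG islands the shares were 55.3% (interval 52.0 to 58.5%) and 53.2%. Starts on both strands, as at bidirectional promoters, were in 24 of the 522 (4.60%, interval 2.97 to 6.76%) and in 9.36% of the other origins with a gene start.

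The genes that started in isolated origins were long. Their median length was 139 kb (interval 114 to 160 kb), where genes started in other origins had 32.7 kb. Among the longest were MACROD2, a hydrolase of ADP-ribose marks, of 2058 kb, CCSER1 of 1478 kb and CNTN5, the adhesion protein contactin 5, of 1338 kb. The origin efficiencies at these starts were 0.966, 0.922 and 0.871, and MACROD2 and CCSER1 were called at 15 minutes. Of the 309 autosomal coding genes of 500 kb or more, 106 had a 3-hour origin over the start and 35 (11.3%, interval 8.02 to 15.4%) an isolated one.

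Over the 19111 autosomal protein-coding genes, 43.9% had a 3-hour origin over the start and 2.91% (556) an isolated one. In a list of 87 genes of synaptic adhesion and axon guidance, 25 (28.7%) had an origin and 8 (9.20%, interval 4.05 to 17.3%) an isolated one. Those 8 were ADGRL3, NRP1, SEMA5A, CHL1, EFNA5, SEMA3D, SLIT2 and CNTN5. NRP1, the neuropilin co-receptor of semaphorins, had an efficiency of 0.949, SEMA5A, a semaphorin, 0.939, and CHL1, an adhesion molecule of the L1 family, 0.908. Of 39 cadherins, 11 had an origin and CDH2 alone an isolated one. Of 148 developmental transcription factors, 49 had an origin and 7 (4.73%, interval 1.92 to 9.50%) an isolated one. TSHZ3, KLF12, BACH2 and ZNF521 had the highest efficiencies of these, with 0.976, 0.958, 0.943 and 0.931, and all 4 were called at 15 minutes.

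Of 222 ion channels and neurotransmitter receptors, 78 had an origin and 6 (2.70%) an isolated one, among them RYR2, the cardiac ryanodine receptor, with 0.970, CACNA2D1, a calcium channel subunit, with 0.951, KCNB2, a potassium channel, with 0.944, and SCN9A, a sodium channel, with 0.936. Of 496 zinc finger genes named ZNF, 199 had an origin and 11 (2.22%) an isolated one, led by ZNF804A with 0.959 and ZNF518B with 0.958. Housekeeping lists gave 1 isolated origin each: RPS23, of 79 cytosolic ribosomal protein genes, with 0.888, and PSMD7, of 38 proteasome subunit genes, with 0.859, and neither was called at 15 minutes. None of 414 olfactory receptor genes had any 3-hour origin over its start. The highest isolated shares were those of the genes of 500 kb or more and of the guidance list. The intervals cover counting error over genes only and are no test of a list. The guidance genes had a median length of 350930 bp and all coding genes one of 27877 bp. ADGRL3, SEMA5A and CNTN5 were among both the guidance genes and the genes of 500 kb or more. Length thus moved with the guidance list, and its part was not tested. With starts within 1 kb of the origin, isolated origins were at 16 guidance genes (18.4%), 11 developmental factors (7.43%), 15 ion channels and receptors (6.76%), 3 cadherins (7.69%) and 60 genes of 500 kb or more (19.4%), beside 767 of all coding genes (4.01%). These lists were chosen with earlier results known, and no list was tested.

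Base composition changed across many isolated origins. GC skew, (G - C)/(G + C), was on average higher in the 10 kb to the right of the centre than in the 10 kb to the left, by 0.0394 in the high class of isolated origins (positive at 505 of 660) and by 0.0280 in that of the others. Over 100 kb the changes were 0.0270 and 0.0146, the isolated value being the higher one on 20 of 22 autosomes. The change over 10 kb was 0.0259 in the medium and 0.00926 in the low class of isolated origins. Over all classes of isolated origins the change over 10 kb was 0.0311, with 850 of 1215 positive. At the 230 of all classes with no coding gene within 10 kb it was -0.000816, with 116 of 230 positive. The 230 were not matched to the rest by class or sequence type, and the part of genes was not tested.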

How the data were processed

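The authors aligned reads to hg38 with Bowtie2, removed reads not aligned uniquely and PCR duplicates, counted HL and LL reads in windows of 100 bp, divided by library totals, joined windows with a log2(HL/LL) of at least 2 within 500 bp and kept islands with HL/(HL + LL) of at least 0.8. The deposited 3-hour list gives this efficiency as a fraction under a header that reads Z-score, with values from 0.8 to 1. For the 15-minute list the authors deposited a score for each origin, scaled over that list. The SNS-seq lists, called by the authors with MACS2 against genomic DNA, hold positions only, and the genomic DNA library was not analysed here. Tool versions are not given in the sources used here.

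Distances and overlaps were computed on hg38 with GENCODE 44, in Python 3.11.15 with pysam 0.24.0 and scipy 1.17.1, in scripts tested on simulated data. A called feature is one that overlaps an interval by at least 1 bp, unless a distance is stated. Members and gene lists were chosen with earlier results of these data known. Members were named at the extremes of efficiency, length, isolation, 15-minute Z-score and flank content, over listed genes (up to 4 a list) and at the 4 longest genes, and others as stated. Some of them, and some sequences, are not reported here. The purine tract, the transcript starts and the sequence families were added after seeing the data. Regions are not replicates, so no p-value is given.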

Additional observations from a re-analysis of the deposited data

How the results depend on the processing

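The number of isolated origins was 2822 with a limit of 100 kb and 289 with 500 kb. With these limits, in that order, the share called at 15 minutes was 57.7 and 44.6%, the share with an SNS-seq peak 91.6 and 85.1%, the share of CpG islands 81.1 and 69.6%, the share over a gene start 47.6 and 36.3% and the median length 800 and 600 bp. At 100 kb the median efficiency was 0.916, and at 500 kb the share with a G4 motif 64.7%. The SNS-seq share was 85.8% for overlap, 90.4% within 10 kb, 83.4% for the 0.5 to 2 kb fraction alone and 82.1% for a peak in both fractions. Flank SNS-seq intervals had medians of 6, 6 and 2 for the short fraction, the long fraction and both. GC content had a median of 70.0% in the central 300 bp and 65.6% in 1 kb. The stricter island criterion (GC above 55%, ratio above 0.65) gave 72.9%, and G4 motifs in 1 kb 76.5%. Gene starts within 1 kb gave 58.2%, genes of any type 48.8% and a median of 5 in the flanks. Chosen after seeing the data, transcript starts gave 62.6%, tracts of 30 and 100 nt 15.97 and 7.57%, and members without tracts 57.2% at 15 minutes and 96.4% for SNS-seq.

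Within efficiency classes the difference from the other origins reversed for the 15-minute share (-5.6 percentage points) and for mean GC content (-1.06 points), and was 6.24 points for CpG islands, -5.85 for G4 motifs and 1.59 for gene starts. Against ini-domain origins alone it was 18.3 points at 15 minutes, 35.5 for islands and 17.3 for gene starts. The SNS-seq difference was -6.16 points for overlap and -2.76 without tracts. The causes were not tested. Leaving out the 13 members whose flanks reach a chromosome end or an assembly gap, which left 1202, or counting 15-minute origins as neighbours, which left 1154, moved none of the values recomputed for them beyond counting error. No paired analysis was possible because each condition is a single list. The lists hold no read counts, so what their sequencing depths do to these shares was not tested.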

Other observations

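Chromosome X was outside the rule. Of its 293 origins in the 3-hour list, 58 (19.8%) had no other within 200 kb. These 58 had a median efficiency of 0.952, 42 of them (72.4%) were called at 15 minutes, an SNS-seq peak overlapped 54 (93.1%), and 2 held a purine tract. The shares over all 293 X origins are not given here. Whether the 58 differ from X origins at large is therefore not shown.

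On the autosomes 1383 of the 9955 15-minute origins had no other 15-minute origin within 200 kb, and 634 of the 9955 overlapped an isolated 3-hour origin. Of the 660 isolated origins of the high class, 137 were not called at 15 minutes, and 30 of these held a purine tract.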
